A study of Mus musculus with 4 samples.

Results

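The major urinary proteins were followed through their probes on 4 liver arrays. The group holds 7 gene names, Mup1, Mup2, Mup3, Mup4, Mup5, Mup20 and Mup21, and a probe belongs to it where the name in the scanner file equals a member and the spot is no control. This rule found 8 probes of 6 genes among 39429 probes per array: 2 each for Mup4 and Mup20 and 1 each for Mup2, Mup3, Mup5 and Mup21. No probe carries the name Mup1, and 3 probes under other names list Mup1 transcripts among their targets, those of Mup2, Mup9 (414) and Mup19. A number in parentheses after a gene is the transcript base at which the probe starts. The members were chosen by their KO/WT ratios and their change with age on these same arrays, so the values describe these pools and carry no test.

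Liver RNA came from C57BL/6N mice labelled Pnpla7-/- (KO) or wild type (WT), and PNPLA7 is a lysophospholipase that the title of the series places in the supply of choline from phosphatidylcholine. The groups are KO at 6 weeks of age, WT at 6 weeks, KO at 3 weeks and WT at 3 weeks. Each has 1 one-colour Agilent array, hybridised with equal amounts of RNA from 5 livers, so no difference has a replicate check, and having 4 arrays limits how precise any value can be. The sources used here do not give the sex of the mice. The 4 arrays share 1 slide, so a group and its position on the slide cannot be told apart.

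Major urinary proteins are small secreted lipocalins whose barrel holds volatile pheromones. Hepatocytes make most of them, they pass through the kidney into urine, and males carry far more than females after puberty. Pulses of growth hormone drive their transcription through the growth hormone receptor, the kinase JAK2 and the factor STAT5B, with androgen, thyroid hormone and glucocorticoid acting on the same genes. Mup1 and Mup2 are liver forms of the central, nearly identical gene block, Mup20 encodes darcin, the male scent protein that attracts females, and Mup4 and Mup5 are known mainly from mucosal and salivary or lacrimal glands.

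All 8 member probes and the 9 other Mup probes map to chromosome 4 (build mm9, from the files). The genes are near-copies of each other, and a probe may read more of them than its name says. The Mup2 probe (chr4:60149741-60149800, minus strand) lists Mup1 as well as Mup2. Probes of Mup3 (chr4:61745794-61745853), Mup4 (chr4:59969824-59969883 and chr4:59973383-59973442), Mup5 (chr4:61496097-61496156), Mup20 (chr4:61713671-61713730 and chr4:61711407-61711466) and Mup21 (chr4:61808866-61808925), all on the minus strand, list their own gene only. No annotation of this build was used, so exons are not assigned. The first set shows how alike probes under different names are, with the bases that differ from the Mup3 probe in capitals. The Mup6 probe matches it at 51 of 60 positions and the Mup-ps12 probe at 52.
Mup3: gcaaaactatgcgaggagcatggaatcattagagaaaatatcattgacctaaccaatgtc
Mup6: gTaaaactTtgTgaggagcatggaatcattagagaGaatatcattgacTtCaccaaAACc
Mup-ps12 (480): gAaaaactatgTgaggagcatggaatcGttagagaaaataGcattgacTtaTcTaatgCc

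A second set gives 30 bases from each of 3 probes near the transcript ends, with bases unlike the Mup4 probe in capitals. The Mup20 (688) stretch differs at 2 positions and the Mup19 stretch at 1, although the probes stand for 3 genes.
Mup4 (669): ttctgtgatctgctttccatcctgtctcac
Mup20 (688): ttctgtgatctgctttccatcGtgtctTac
Mup19: ttctgtgatctgcAttccatcctgtctcac

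Of 136 pairs of Mup probes, 6 share an unbroken run of at least 16 bases, among them Mup20 (688) with Mup4 (669). The Mup5 probe, which opens with an ATG (capitals), and the Mup20 (314) and Mup4 (95) probes list no other gene and lie nearer the transcript starts.
Mup5: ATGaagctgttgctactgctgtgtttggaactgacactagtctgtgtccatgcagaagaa
Mup20 (314): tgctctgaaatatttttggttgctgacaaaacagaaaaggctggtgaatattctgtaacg
Mup4 (95): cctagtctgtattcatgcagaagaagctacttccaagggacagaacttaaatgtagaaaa

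RefSeq promoter windows (GRCm38.p6) were found for 4 of the 7 members, Mup2, Mup3, Mup4 and Mup21, and the names without an entry are Mup1, Mup5 and Mup20. The 150 bases shown for each, on the minus strand, hold a TATATAA box in capitals. Mup3 and Mup21 are the most alike, identical in 90.8% of alignment columns, and Mup3 and Mup4 are identical in 85.0%. Mup2 had 56.9% to 59.2% with the other 3, a share that counts gap columns. Mup2 and Mup4 were identical at 109 bases in an alignment of 184 columns, longer than the 150-base windows. Gaps therefore lower the share for Mup2, and its likeness outside the gaps was not measured.
Mup2, chr4:60139869-60140018: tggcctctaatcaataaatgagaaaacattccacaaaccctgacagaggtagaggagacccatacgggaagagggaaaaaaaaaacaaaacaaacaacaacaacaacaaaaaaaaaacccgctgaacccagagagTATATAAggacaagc
Mup3, chr4:62087314-62087463: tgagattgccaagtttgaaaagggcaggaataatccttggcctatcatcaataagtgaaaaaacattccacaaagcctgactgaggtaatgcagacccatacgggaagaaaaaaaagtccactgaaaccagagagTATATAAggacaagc
Mup4, chr4:59960682-59960831: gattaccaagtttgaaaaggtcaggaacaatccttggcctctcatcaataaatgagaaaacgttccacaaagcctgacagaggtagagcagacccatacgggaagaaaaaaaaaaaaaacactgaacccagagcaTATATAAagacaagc
Mup21, chr4:62150835-62150984: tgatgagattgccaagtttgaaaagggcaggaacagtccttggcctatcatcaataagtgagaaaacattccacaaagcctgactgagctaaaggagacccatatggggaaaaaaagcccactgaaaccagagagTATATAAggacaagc

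Windows from 250 bases before to 50 bases after the annotated start were searched on both strands. TATATAA occurs in 13 of 14 Mup promoters with an entry, against 3.24% of 32851 promoters. The STAT5 letters TTCNNNGAA were in none of the 14 Mup promoters, against 8.30% of all, and the longer spacing TTCNNNNGAA was in 5 of 14, Mup4 among the members, against 6.95%. A match is a description of the letters, and a missing match says only that these letters are not in this window.

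A signal below is the background-subtracted intensity in units of its array's 75th percentile, taken over the spots that are no controls. Of the 8 member probes, 7 were well above background on all 4 arrays, and Mup4 (95) was so only in KO at 6 weeks. Hepatocyte markers, among them Alb and Ttr, were well above background on every array, 8 of 8, and their summed signal ran from 1251 to 1412. Each Mup probe has 1 spot, so its own technical spread was not measured. Among 129 bright probes with 10 spots, the median technical SD of a log2 ratio between arrays was 0.1 for KO/WT at 6 weeks, 0.0864 for KO/WT at 3 weeks, 0.102 for 6 over 3 weeks in KO and 0.0847 in WT, which leaves out differences between pools.

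The probes of Mup2 and darcin were dimmest in WT at 3 weeks. Mup2 had a signal of 92.4 in KO and 44.8 in WT at 6 weeks, and of 39.8 in KO and 7.07 in WT at 3 weeks. KO at 3 weeks thus lay close to WT at 6 weeks for this probe, and WT at 3 weeks stood below the other 3 arrays. Mup20 (314), for darcin, had 79.3 in KO and 45.1 in WT at 6 weeks, and 44.6 in KO and 7.74 in WT at 3 weeks. The second darcin probe, Mup20 (688), had 48.3 in KO and 46.4 in WT at 6 weeks, and 70.3 in KO and 16.1 in WT at 3 weeks. The darcin probes therefore gave the same lowest array but different highest ones, KO at 6 weeks for the probe at base 314 and KO at 3 weeks for the probe at base 688.

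The probes Mup3, Mup4 (669) and Mup21 followed the same low array with smaller gaps. Mup3 had 53.0 in KO and 57.3 in WT at 6 weeks, and 33.4 in KO and 19.9 in WT at 3 weeks. It is the member probe on which WT exceeded KO at 6 weeks. Mup4 (669) had 136 in KO and 95.0 in WT at 6 weeks, and 79.1 in KO and 24.6 in WT at 3 weeks. Mup21 had 10.4 in KO and 9.44 in WT at 6 weeks, and 6.31 in KO and 3.54 in WT at 3 weeks. For both, each array lay above the next in the order KO at 6 weeks, WT at 6 weeks, KO at 3 weeks, WT at 3 weeks.

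The probes of the gland-associated forms did not behave alike. Mup5 had 42.7 in KO and 18.1 in WT at 6 weeks, and 16.03 in KO and 2.55 in WT at 3 weeks, the widest ratio between highest and lowest array among the 7 probes measured on all 4. Mup4 (95) had 0.0249 in KO at 6 weeks and was not well above background on the other arrays. There it read 0.00251 in WT at 6 weeks, 0.00555 in KO at 3 weeks and 0.00319 in WT at 3 weeks. Mup4 (669), a probe under the same name, read 24.6 to 136, so these probes of Mup4 differ widely in level. Mup4 (669) shares a run of 16 bases with the Mup19 probe and 24 with Mup20 (688). Which genes it read was not tested. Of 7 salivary and lacrimal markers, 2 or 3 were well above background on each array: Amy1 and Aqp5 on all, and Pip in KO at 3 weeks. Prol1, Bpifa2, Smr3a and Dcpp1 were so on none. The markers' summed signal was 38.9 in KO and 24.9 in WT at 6 weeks and 27.4 in KO and 27.1 in WT at 3 weeks. Amy1 alone read 38.83 and 24.85 at 6 weeks and 27.35 and 27.02 at 3 weeks, so the sum is in effect a reading of Amy1. The part of gland RNA in these results was not tested. A bulk signal cannot tell fewer cells of a type from less RNA per cell.

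**Figure D1:**
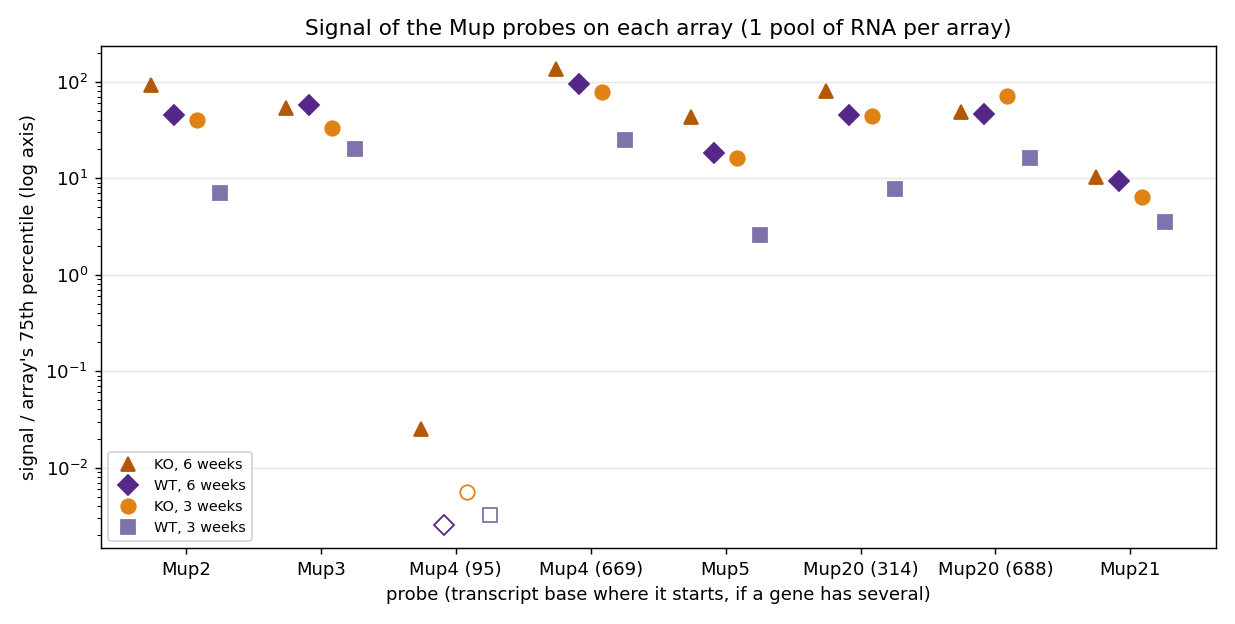
Signal of the 8 member probes on each array, as intensity over the array's 75th percentile on a log axis, with 1 point per array and no error bar because each group is 1 pool. Open symbols are not well above background. The WT array at 3 weeks is lowest for all 7 probes measured on every array, from 2.55 for Mup5 to 24.6 for Mup4 (669).

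At 3 weeks, KO exceeded WT on every member probe that could be compared. The log2 KO/WT ratio was 2.65 for Mup5 (6.30-fold), 2.53 for Mup20 (314), 2.49 for Mup2, 2.13 for Mup20 (688), 1.69 for Mup4 (669), 0.84 for Mup21 and 0.74 for Mup3 (1.68-fold). The median of these 7 was 2.13, where all 27467 probes compared had a median of 0.00. At least 2-fold higher were 5 of the 7, beside 2.93% of all probes, and nothing is read from that count because the choice of members used this contrast. Mup3 and Mup21 were the 2 below 2-fold.

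At 6 weeks the same probes lay closer together. The log2 KO/WT ratio was 1.24 for Mup5, 1.04 for Mup2, 0.81 for Mup20 (314), 0.52 for Mup4 (669), 0.14 for Mup21, 0.06 for Mup20 (688) and -0.11 for Mup3. The last 3 are of about the size of the technical SD of 0.1, so these probes do not separate KO from WT at this age, and Mup20 (688) turned to -0.13 with quantile normalization, -0.16 with normexp and quantile normalization and -0.07 with scaling to hepatocyte secreted proteins. Mup4 (95) was at least 2.44-fold higher in KO, a bound set by the dimmest WT signal still called above background, but its log2 ratio was 0.33 with normexp and quantile normalization, which ends its place past 2-fold. Including that bound, the median of 8 probes was 0.67, beside 0.05 over 27723 probes, and 3 were at least 2-fold higher, beside 6.33% of all probes. Mup4 (95) was compared only because KO was above background, so it could only count as higher. Over the probes well above background on all 4 arrays the median was 0.52, and 2 of 7 were at least 2-fold higher.

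Between the ages, the signal was higher at 6 weeks on most probes in KO and on every compared probe in WT. The log2 ratio of 6 over 3 weeks in KO was 1.41 for Mup5, 1.22 for Mup2, 0.83 for Mup20 (314), 0.78 for Mup4 (669), 0.72 for Mup21, 0.67 for Mup3 and -0.54 for Mup20 (688). Mup4 (95) was at least 3.98-fold higher by its bound, a log2 ratio of 1.99 that was 1.48 with outlier spots kept and 0.37, no longer past 2-fold, with normexp and quantile normalization. With the bound, the median of 8 in KO was 0.81, with 3 at least 2-fold higher, beside 6.45% of 28181 probes. Mup4 (95) was compared only because KO at 6 weeks was above background, so it could only count as higher. Over the probes well above background on all 4 arrays the median was 0.78, with 2 of 7 at least 2-fold higher. In WT the gain was wider. All 7 probes compared there were at least 2-fold higher at 6 weeks, beside 3.54% of 27250 probes, with a median log2 ratio of 1.95 (3.86-fold). They ran from 1.42 for Mup21 to 2.83 for Mup5, and Mup2 and Mup20 (314) stood at 2.66 and 2.54. A gain of Mup RNA at puberty is known from mouse liver, and these counts are read no further, since the members were chosen on them.

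The age change in KO was smaller than that in WT on each of the 7 probes, by between 0.70 (Mup21) and 2.07 (Mup20 (688)) on the log2 scale, and the difference had a median of -1.42, beside 0.05 over 24467 probes. Mup20 (688) was the 1 probe past 4-fold, beside 0.629% of all probes. The comparisons share arrays: WT at 3 weeks enters both the KO/WT ratio at 3 weeks and the age change in WT, and a low value there moves both in the same direction.

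**Figure D2:**
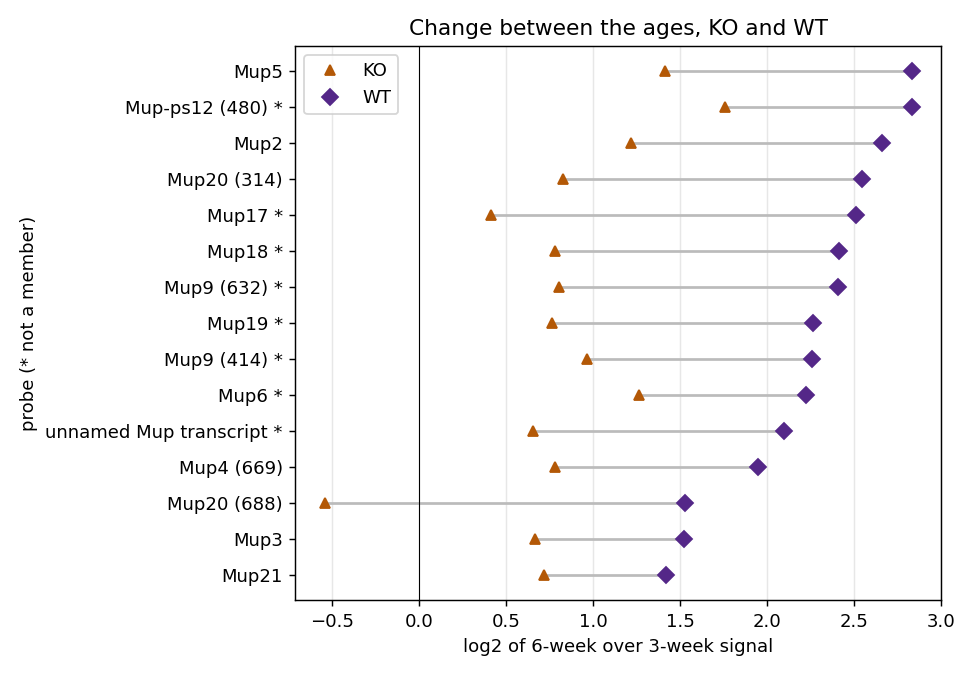
Log2 of the 6-week over the 3-week signal for each Mup probe measured in all 4 pools. KO values are triangles and WT values diamonds, and an asterisk marks probes of other Mup genes. KO lies left of WT on all 15 probes, and Mup20 (688) in KO is the one value below 0, at -0.54.

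The pools were also set against the WT level at 6 weeks. Since the members were chosen on these arrays, the shares only describe them. Over the 7 probes, KO at 6 weeks was at 92.6% to 236% of the WT level at 6 weeks (median 143%). KO at 3 weeks was at 58.3% to 152% of it (median 88.4%), and WT at 3 weeks at 14.0% to 37.4% (median 25.9%). The order KO at 6 weeks, WT at 6 weeks, KO at 3 weeks, WT at 3 weeks, from high to low, held for 5 of the 7 probes. Mup3 put WT above KO at 6 weeks, and Mup20 (688) put KO at 3 weeks above both 6-week arrays. Within pairs next to each other in this order, KO at 3 weeks and WT at 6 weeks were closest for Mup20 (314), at 98.8%. No replicate pool sets a spread for any of these steps.

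Of the 9 probes of other Mup genes, 8 were well above background on all 4 arrays. Mup19 had a signal of 259 in KO and 175 in WT at 6 weeks, and of 152 in KO and 36.4 in WT at 3 weeks, and its targets include Mup1. Mup9 (414), which also lists Mup1, had 181 in KO and 105 in WT at 6 weeks, and 92.5 in KO and 22.0 in WT at 3 weeks. These readings stand in for Mup1 only as far as the shared targets allow. Mup17 had log2 KO/WT ratios of 0.22 at 6 weeks and 2.31 at 3 weeks, Mup18 of 0.61 and 2.24, and Mup9 (632) of 0.77 and 2.36. Mup6, whose probe resembles that of Mup3, had 0.03 at 6 weeks and 0.99 at 3 weeks. Mup-ps12 (480), a pseudogene probe that matches Mup3 at 52 positions, had 1.22 and 2.30, and a probe for an unnamed Mup transcript had 1.43 and 2.87. The dim probe Mup-ps12 (54) had a signal of 0.164 in KO and 0.123 in WT at 6 weeks, and of 0.0132 in KO at 3 weeks, and was not well above background in WT at 3 weeks. Its log2 ratio of 6 over 3 weeks was 3.63 in KO and at least 3.02 in WT, above those of the member probes compared in each. Over all 17 Mup probes, 5 of 17 were at least 2-fold higher in KO at 6 weeks (6.33% of all probes), and 12 of the 15 that could be compared were so at 3 weeks (2.93%). Between the ages, 6 of 17 were at least 2-fold higher at 6 weeks in KO (6.45% of all probes), and 16 of 16 compared in WT (3.54%).

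**Figure D3:**
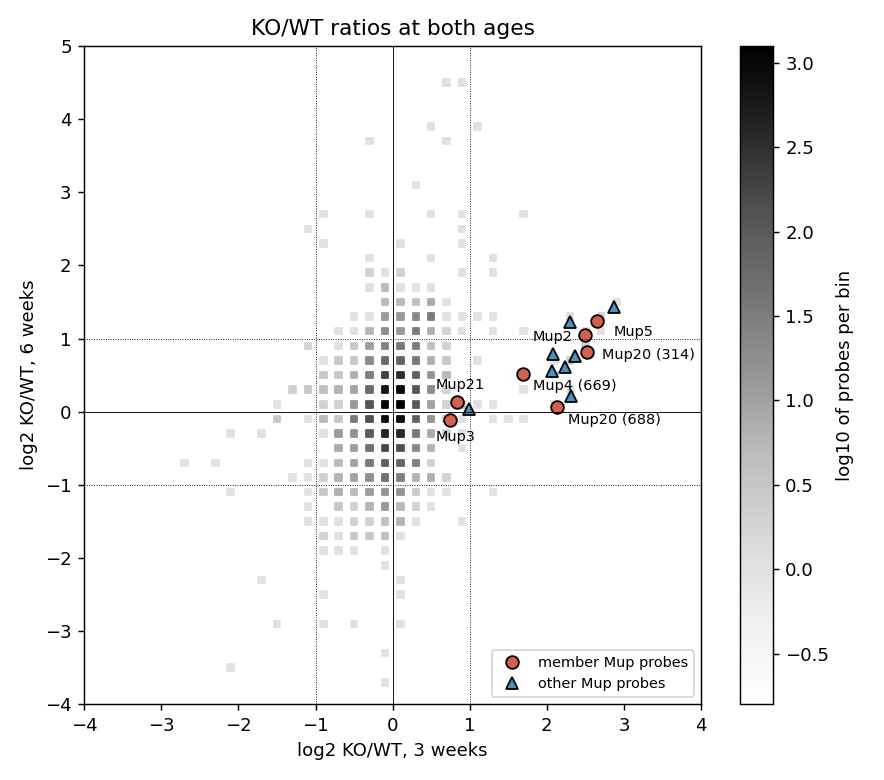
Log2 KO/WT at 3 weeks (horizontal) against 6 weeks (vertical). Grey squares count the 9589 bright probes well above background on all arrays, circles are member probes and triangles other Mup probes; dotted lines mark 2-fold. The Mup probes lie to the right, from 0.74 to 2.87 at 3 weeks, and between -0.11 and 1.43 at 6 weeks.

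Likeness among members was measured as the Euclidean distance between log2 profiles centred over the 4 arrays. Mup3 and Mup21 were the closest members, 0.189 apart, and Mup5 and Mup2 followed at 0.256. Mup5 and Mup3 were the farthest, at 1.95. The Mup20 probes lay 1.34 apart, farther than Mup2 and Mup20 (314), at 0.302, so probes of the same gene were less alike here than some probes of different genes.

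Among 14084 genes with a symbol measured on all arrays, the nearest to the median member profile was Gabre, a GABA-A receptor subunit, at a distance of 0.496. It was followed by Kitl, the ligand of the receptor KIT, at 0.639, Srl at 0.648, Adgrg2 at 0.750, Fbxo21 at 0.799, Me3 at 0.846, Smad9 at 0.847, Ncmap at 0.861, Hbb-bh2 at 0.896 and BC037704 at 0.921. Fbxo21 is the 1 of these 10 with a signal above 1, at 12.7 in KO and 8.19 in WT at 6 weeks and 5.89 in KO and 3.62 in WT at 3 weeks. The rest are dim genes, and with 4 arrays many profiles can come close. By member, Srl was nearest to Mup2, Sos1 to Mup3, Gabre to Mup4 (669), Pax2 to Mup5, Me3 to Mup20 (688) and Smad9 to Mup21. Nr0b2, the nuclear receptor known as SHP, was also among the 3 nearest to Mup3 (0.207) and Mup21 (0.197). Cyp4a12b, a male-biased fatty acid hydroxylase, was the third nearest to Mup5 but far from it, at 1.42 against 0.70 for Pax2. The others among the 3 nearest were Pax2 and Adgrg2 for Mup2, Smad9 for Mup3, Adgrg2 and Srl for Mup4 (669), Srl for Mup5, Kitl and Hbb-bh2 for Mup20 (688) and Sos1 for Mup21.

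Srl encodes sarcalumenin of the muscle sarcoplasmic reticulum, and skeletal muscle markers separated the KO arrays from the WT arrays. Of 26 muscle markers, 25 were at least 2-fold higher in KO at 6 weeks and 26 at 3 weeks, beside 6.33% and 2.93% of all probes. Of the 26 ratios, 9 at 6 weeks and 14 at 3 weeks were bounds, with WT not well above background. Their summed signal was 61.1 in KO and 3.31 in WT at 6 weeks, and 88.4 in KO and 2.32 in WT at 3 weeks. The muscle sum was thus higher in KO at both ages and highest in KO at 3 weeks. Of the 7 Mup probes, 6 were higher in KO at 6 than at 3 weeks. The part of muscle RNA in the Mup values was not tested. Kupffer cell markers summed to 44.7 in KO and 80.7 in WT at 6 weeks, and to 83.0 in KO and 90.9 in WT at 3 weeks.

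The growth hormone route to the Mup genes was read through 21 genes, of which 20 gave a measured ratio everywhere. The receptor Ghr had log2 KO/WT ratios of 0.08 at 6 weeks and -0.24 at 3 weeks, the kinase Jak2 of -0.14 and -0.07, and the factor Stat5b of -0.03 and -0.01. At 3 weeks all 3 lay closer to 0 than any member probe, the lowest of which stood at 0.74. Since the members were chosen by this ratio, nothing is read from the gap. Stat5b was higher at 6 than at 3 weeks in KO by 0.56 and in WT by 0.58, and Stat5a had KO/WT ratios of -0.31 and -0.10. Igf1, the main growth factor made by liver under growth hormone, had -0.18 at 6 weeks and -0.20 at 3 weeks. Igfals, which carries IGF-1 in serum, had -0.37 and -0.66, and Cish, a feedback inhibitor, had -0.29 and -0.55. Socs2, the feedback inhibitor most tied to growth hormone, had -0.17 and 0.15, and Prlr, the prolactin receptor, had -0.58 and -0.66.

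The genes of the growth hormone list past 2-fold are named first. Igfbp1, an IGF-binding protein raised by fasting, was past it at 6 weeks, with a signal of 108 in KO and 47.0 in WT, and stood at 128 in KO and 67.3 in WT at 3 weeks. Egfr, the epidermal growth factor receptor, was past it at 3 weeks, with 14.5 in KO and 6.68 in WT, and had 7.43 in KO and 6.96 in WT at 6 weeks. Egfr is also known to be higher in male than in female mouse liver, and its ratio, like those of the member probes, was larger at 3 than at 6 weeks. Ghrhr was called above background only in WT at 3 weeks, where KO/WT was -1.08 or below. The remaining members stayed within 2-fold, with KO/WT ratios at 6 and 3 weeks of 0.19 and 0.42 for Igf1r, -0.07 and 0.58 for Igfbp2, 0.11 and 0.14 for Igfbp3, and 0.76 and 0.06 for Igfbp4. Socs1 had -0.25 and -0.12, Socs3 had 0.08 and 0.06, Irs1 had -0.74 and 0.15, Irs2 had 0.09 and 0.55, and Lepr had 0.53 and 0.51. In all, 1 of 20 was at least 2-fold higher and 0 lower at 6 weeks, beside 6.33% and 4.39% of all probes. At 3 weeks 1 of 21 was higher and 1 lower, beside 2.93% and 3.01%. These counts are near the shares of all probes, and nothing is read from them. The list's median log2 ratio was -0.05 at 6 weeks and 0.06 at 3 weeks, beside 0.05 and 0.00 over all probes.

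**Figure D4:**
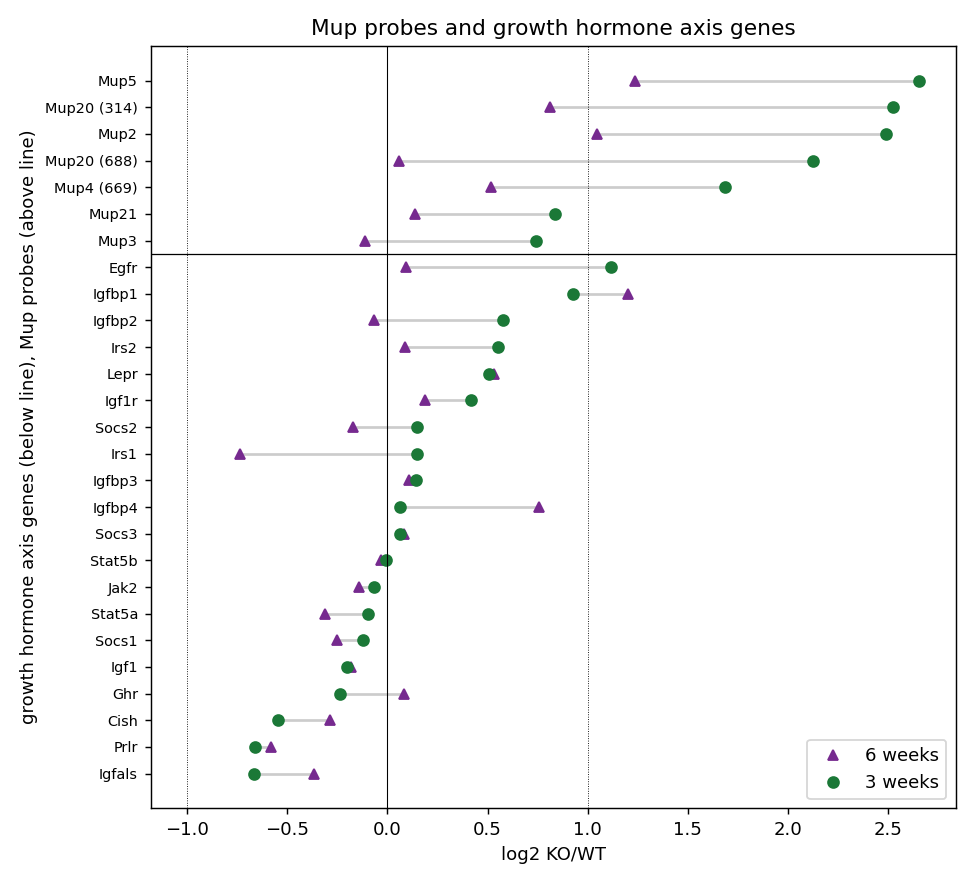
Log2 KO/WT of the 7 member probes measured on all arrays (above the line) and the 20 growth hormone axis genes so measured (below it), with triangles for 6 weeks and circles for 3 weeks. The Mup probes reach 2.65 at 3 weeks, while the axis genes run from -0.66 (Igfals, Prlr) to 1.12 (Egfr) at that age.

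Other liver genes with a sex bias set by growth hormone were listed by their known direction. Of all probes, 6.33% were at least 2-fold higher in KO and 4.39% lower at 6 weeks, and 2.93% higher and 3.01% lower at 3 weeks. Of 16 male-biased genes compared at 6 weeks, 4 were at least 2-fold higher in KO and 2 lower, with a median of 0.04, and of 15 at 3 weeks 5 were higher and 0 lower, with a median of 0.20. Slco1a1, an organic anion transporter, read 0.301 in KO and 0.248 in WT at 6 weeks, and 0.599 in KO and 0.0567 in WT at 3 weeks. Hsd3b5, a steroid-metabolising enzyme of male liver, had 0.0726 in KO and 0.163 in WT at 6 weeks, and 0.504 in KO and 0.129 in WT at 3 weeks. Both had, as Mup20 (688) did, their highest signal in KO at 3 weeks. The hydroxylases Cyp4a12b and Cyp4a12a differed from the Mup probes by the larger KO/WT ratio at 6 weeks, 2.59 against 2.07 at 3 weeks and 2.17 against 1.22.

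Of 23 female-biased genes at 6 weeks, 7 were at least 2-fold lower in KO (4.39% of all probes) and 3 higher, with a median of -0.17. At 3 weeks 12 of 22 were lower (3.01% of all probes) and 0 higher, with a median of -1.02, opposite in sign to the Mup probes. Cyp3a44, a cytochrome P450 of female liver, had ratios of -3.48 at 6 weeks and -2.05 at 3 weeks, Hao2, a hydroxyacid oxidase, of -2.94 and -1.45, Prom1 of -2.89 and -1.60, and Cyp3a41b of -2.28 and -1.63. Cyp3a genes are near-copies too, and a probe for one may read another. The X-linked transcript Xist, looked at after its values were seen, was called above background in all 4 pools, at 1.79 in KO and 1.47 in WT at 6 weeks and 1.29 in KO and 1.27 in WT at 3 weeks. Of the Y-linked genes Ddx3y, Kdm5d, Eif2s3y and Uty, only Uty was, in WT at 3 weeks, at 0.222. The part of pool composition in the Mup values was not tested.

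Transcription factors tied to hepatocyte sex bias and Mup expression were listed as well. Of 23 compared at 6 weeks, 2 were at least 2-fold higher in KO and 1 lower, beside 6.33% and 4.39% of all probes. None of 22 were past 2-fold at 3 weeks, beside 2.93% higher and 3.01% lower. These counts are near the shares of all probes, and nothing is read from them. The list's medians were 0.12 at 6 weeks and 0.00 at 3 weeks. Zhx2, a repressor of fetal liver genes that is also known to act on Mup genes, had a dim signal of 0.0181 in KO and 0.0443 in WT at 6 weeks, and of 0.0252 in KO and 0.0195 in WT at 3 weeks. Nr1i3, the receptor CAR, stood at 1.04 at 6 weeks and -0.21 at 3 weeks on the log2 KO/WT scale, and Cux2, a repressor of male-biased genes, at 0.92 and -0.61. Both had opposite signs at the ages and were below 0 at 3 weeks.

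Abundant hepatocyte secretions and chromosome neighbours serve as a reading of general liver output and of the region. Of 20 abundant secreted proteins, 0 were past 2-fold at 6 weeks and 1 was lower at 3 weeks, with medians of 0.16 and -0.04, and Apoa1, the main protein of HDL, had 0.28 and 0.23. Of 18 compared genes that neighbour the Mup cluster, 1 was at least 2-fold higher at 6 weeks, and 1 higher and 1 lower at 3 weeks, with medians of 0.02 and -0.09. Beside the shares of all probes, 6.33% higher at 6 weeks and 2.93% higher and 3.01% lower at 3 weeks, these counts are near the background. Rgs3 had -0.93 at 6 weeks and -0.02 at 3 weeks, Hdhd3 had -0.85 and 0.03, Col27a1 had 0.66 and -0.53, and Orm1 had 0.84 and -1.17. Both medians at 3 weeks lay below that of the Mup probes, 2.13. The members were chosen by their KO/WT ratios, so nothing is read from this gap.

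Pnpla7, the targeted gene, had a signal of 4.42 in the array labelled KO and 9.65 in WT at 6 weeks, and of 6.70 in the array labelled KO and 7.54 in WT at 3 weeks. The sources used here do not say what was removed from the gene, so this probe is no check of the genotypes, and each KO/WT direction rests on the labels.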

How the data were processed

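RNA of 4 liver pools, each from 5 animals, was hybridised to 1-colour (Cy3) Agilent arrays on 1 slide, per the labels and the design text. Agilent Feature Extraction 11.5.1.1, named in the submitters' processing notes, made the deposited intensity values, with background subtracted and trends over the array removed, per the file headers. Arrays were not scaled to each other. Deposited flags (other values, 0 or 1) mark outlier, saturated and well-above-background spots, per the file headers. The authors' deposited table holds a signal equal to that intensity over the array's 75th percentile: its median quotient to the value computed here was 0.9999 to 1 except for 0.9998 in WT at 6 weeks, which settles scale and direction. It is not centred per gene. Its column medians were 0.0798 for KO and 0.0778 for WT at 6 weeks, and 0.0815 for KO and 0.0797 for WT at 3 weeks.

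From 43020 non-control spots per array, of which 28714 to 30697 were well above background, 189 to 252 outlier spots were left out and none was saturated. Log2 intensity minus the array's log2 75th percentile was averaged per probe, each probe apart. For other genes the brightest probe was used, and 27502 of 39429 probes were named through their accession in a RefSeq table. A ratio was taken where either of its arrays had the probe well above background. Where the other had not, it is a bound that puts in the larger of that array's own reading and its lowest signal so called. A bound on which the detected array was not the brighter was left out, so a bound always favours the detected array. Counts use 2-fold, or 4-fold for the difference between age changes. With 1 array per group no test was run.

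The members, lists and the naming rule were chosen with earlier results of these data known. The rule names all members, other Mup probes, the growth hormone list, Pnpla7, up to 4 genes of every other list by mean absolute KO/WT ratio, and the nearest profiles. A gene the rule takes is not reported here. Probes of Mup-ps12, Mup18 and the unnamed transcript, found by description, were added after values were seen, as were Xist, the Y-linked genes and the names of the salivary and lacrimal markers. Alternatives were normexp (offset 50) with quantile normalization in limma 3.58.1 and R 4.3.3, quantile normalization alone, median scaling, scaling to hepatocyte secreted proteins, other filters, probe rules and thresholds, outliers kept, and the authors' table. Other steps used Python 3.11.15, numpy 2.4.6 and pandas 2.3.3. The steps were tested on simulated data.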

Additional observations from a re-analysis of the deposited data

Results flagged for a closer look

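Mup3 drew attention because its KO and WT signals were ordered oppositely at the ages: KO was below WT at 6 weeks (53.0 against 57.3) and above it at 3 weeks (33.4 against 19.9). The log2 KO/WT ratio at 6 weeks minus that at 3 weeks was -0.85. With 1 array per group this difference was not tested, and the 6-week ratio of -0.11 is close to the technical SD of 0.1.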

How the results depend on the processing

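No Mup median changed sign under the alternatives. Of 294 single-probe values 291 kept their sign, the exceptions being Mup20 (688) for KO/WT at 6 weeks (0.06) with quantile normalization (-0.13), normexp and quantile normalization (-0.16) and scaling to hepatocyte secreted proteins (-0.07), and 45 moved by more than the median technical SD over all 292 probes with 10 spots, bright or dim (0.097 to 0.128 for ratios and 0.168 for the difference between age changes). The KO/WT median at 6 weeks, 0.67, was 0.43 with quantile normalization, 0.33 with normexp and quantile normalization, 0.52 with probes well above background on all 4 arrays, 0.33 with the brightest probe per gene and 0.54 with scaling to hepatocyte secreted proteins. That scaling, chosen after seeing the data, shifts all probes by -0.13 for KO/WT at 6 weeks and -0.11 for 6 over 3 weeks in KO. The median of 6 over 3 weeks in KO, 0.81, was 0.61, 0.59 and 0.97 with quantile normalization, normexp and quantile normalization, and the mean of probes. The KO/WT median at 3 weeks, 2.13, was 1.91 with no filter, 2.01 with the mean of probes and 1.91 with the brightest probe. The median of 6 over 3 weeks in WT, 1.95, was 1.74 with no filter and with the brightest probe. Of the counts, 3 probes at least 2-fold higher in KO at 6 weeks became 1 with normexp and quantile normalization (2 with quantile normalization alone) and 0 at 3-fold. The 3 higher at 6 weeks in KO became 7 at 1.5-fold and 1 at 3-fold, and the 7 in WT became 4 at 3-fold. Past the threshold for a smaller age change in KO, the 1 probe became 4 at 2.25-fold, 0 at 9-fold and 0 with the mean of probes, and with no filter 1 probe, against 0, passed it for a larger one. The cause was not tested beyond the probes each setting drops. No paired analysis was possible because each group has 1 array, and none can be left out. The lowest signals called well above background, 0.00626 to 0.0151, limit Mup4 (95) to bounds.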

Other observations

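Other members of the lipocalin family, to which the major urinary proteins belong, did not share a single course. Of 15 compared at 6 weeks, 4 were at least 2-fold higher in KO and 1 lower, with a median log2 KO/WT ratio of 0.27, and of 14 at 3 weeks 0 were higher and 3 lower, with a median of -0.25. Of all probes, 6.33% were at least 2-fold higher and 4.39% lower at 6 weeks, and 2.93% higher and 3.01% lower at 3 weeks. Lcn2, which binds bacterial siderophores, had a signal of 9.62 in KO and 1.09 in WT at 6 weeks, and of 5.77 in KO and 4.804 in WT at 3 weeks. The orosomucoid Orm3 had 4.79 in KO and 0.642 in WT at 6 weeks, and 0.129 in KO and 0.233 in WT at 3 weeks. Orm2 had 43.6 in KO and 22.0 in WT at 6 weeks, and 3.33 in KO and 7.09 in WT at 3 weeks. Lcn2, Orm2 and Orm3 were thus higher in KO at 6 weeks, and Orm2 and Orm3 lower at 3 weeks, when the Mup probes were higher. Apod, a lipid carrier, had ratios of 2.77 at 6 weeks and 0.53 at 3 weeks. Ptgds, a prostaglandin D synthase, was below WT at both ages, at -1.14 and -0.63, C8g, of the complement system, stood at -0.42 and -0.13, and Apom (0.00 and -0.04) and Ambp (0.11 and -0.16) were close to WT. Ptgds, C8g, Apom and Ambp are named here after their values were seen. Orm1, the orosomucoid beside the Mup cluster, was higher at 6 than at 3 weeks by 3.81 on the log2 scale in KO and by 1.80 in WT.

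Of 19 acute phase genes, which share Orm1, Orm2 and Lcn2 with the lipocalin list, 4 were at least 2-fold higher in KO at 6 weeks and 0 lower, with a median of 0.51, and 0 were higher and 2 lower at 3 weeks, beside the same shares of all probes, 6.33% higher at 6 weeks and 3.01% lower at 3 weeks. The serum amyloids Saa1 and Saa2 had ratios of 4.44 and 4.48 at 6 weeks and 0.79 and 0.93 at 3 weeks. Of 15 genes of pericentral or periportal hepatocytes, 2 were at least 2-fold higher in KO at 6 weeks, the pericentral Oat at 1.43 and Slc1a2 at 1.16, beside 6.33% of all probes, and 0 at 3 weeks.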
